A study of Homo sapiens with 3 samples.

Results

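Expression of 10 genes of the amino acid stress response that runs through the transcription factor ATF4 was read in MCF10A cells. The genes ATF4, ATF5, DDIT3, TRIB3, CHAC1, ASNS, SESN2, DDIT4, EIF2AK4 and PPP1R15A were taken by symbol through GENCODE release 44, and all 10 were found among the 62754 genes of the deposited table. MCF10A, a human breast epithelial line that is immortal but forms no tumors, here carried an empty Retro-X Tet-One vector with no gene of interest, was selected with puromycin and was harvested with no doxycycline given. The 3 replicates are of this single condition and of 1 batch, so no group can be compared with another and no induction of the response was measured. Total RNA was depleted of ribosomal RNA, and expression is given in TPM, a measure of reads per transcript length that is scaled to the same sum of 1000000 in every library. Reads on annotated genes numbered 15273329, 15446347 and 11166546 in replicates 1, 2 and 3, taking the smallest step in each replicate as 1 read. Replicate 3 stood apart, with 15.1% of its TPM in the short non-coding RNA RN7SL1 against 4.93% and 5.66% in replicates 1 and 2. All 7 markers of basal and epithelial cells, KRT5, KRT14, KRT17, TP63, EPCAM, CDH1 and ITGB4, were above 1 TPM, with means from 14.6 to 6612 TPM. Of 10 markers of luminal hormone-responsive cells, leukocytes, endothelium and fibroblasts, 2 reached 1 TPM, PECAM1 at 1.77 TPM and COL1A1 at 4.96 TPM, while CD3E, CDH5 and COL1A2 had 0 reads in every replicate. The leukocyte marker CD68, with 0, 2 and 0 reads, shares 94.9% of its canonical transcript with same-strand exons, so its value does not show whether its message was absent.

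In this response, kinases that sense a lack of amino acids or other stress phosphorylate the initiation factor eIF2, which lowers protein synthesis in general while the ATF4 message is translated more. ATF4 binds with partners of the C/EBP family to composite DNA elements near genes for amino acid synthesis, amino acid transport and tRNA charging. The response restrains itself through a phosphatase subunit that restores eIF2 and through a pseudokinase that binds ATF4. Since ATF4 itself is controlled largely in translation, its mRNA level is no measure of its protein.

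The composite element, the C/EBP-ATF response element, was searched for as TGATGNAA, which reads TTNCATCA on the other strand, and the cAMP response element as TGACGTCA, which reads the same on both strands. In the promoter windows that RefSeq annotation on GRCh38.p14 gives, from 250 bases before to 50 bases after each start, the composite element was present for 2 of the 10 genes, ASNS and CHAC1, and in 3.62% of all 35116 windows. The cAMP response element was present for PPP1R15A alone of the 10 genes and in 1.85% of all windows. The response genes had from 1 to 3 windows each and were counted if any of them held the element. Counts of genes and shares of windows are thus not in like units. In the 1000 bases before the start of the canonical transcript in hg38, a longer window chosen after the promoter windows had been seen, the composite element was present for 5 of the 10 genes and in 11.3% of 20033 protein-coding genes, and the cAMP response element again for PPP1R15A and in 3.36% of genes. The ER stress response element was found for 0 of the 10 genes in either window. It was rare in general, in 0.077% of all promoter windows and 0.15% of genes in the 1000 bases. None of the 10 genes held matches of more than one of these elements. The stretches that hold the matches are shown on the strand of each gene, with the match in capitals and distances counted from the start of the canonical transcript, to show where in the sequence each match lies.

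ASNS, chr7:97872449-97872496, minus strand, match starting at -68 from the start: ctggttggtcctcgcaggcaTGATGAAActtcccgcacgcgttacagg
ASNS, chr7:97873267-97873314, minus strand, match starting at -886: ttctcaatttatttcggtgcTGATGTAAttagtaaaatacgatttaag
CHAC1, chr15:40953242-40953289, plus strand, match starting at -209: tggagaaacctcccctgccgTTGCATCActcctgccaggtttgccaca
DDIT3, chr12:57520793-57520840, minus strand, match starting at -306: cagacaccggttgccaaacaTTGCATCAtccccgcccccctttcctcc
SESN2, chr1:28259202-28259249, plus strand, match starting at -296: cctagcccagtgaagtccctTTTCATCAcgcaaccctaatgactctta
DDIT4, chr10:72272958-72273005, plus strand, match starting at -946: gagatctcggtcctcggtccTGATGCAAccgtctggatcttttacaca
PPP1R15A, chr19:48872343-48872390, plus strand, match of the cAMP response element starting at -58: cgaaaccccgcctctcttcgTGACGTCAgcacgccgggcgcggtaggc

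These matches are of letters only, and no binding was measured. By mean TPM, the 5 genes with a match of the composite element ran from DDIT4 at 388 TPM to CHAC1 at 1.34 TPM and ASNS at 0.781 TPM. For ASNS, 99.5% of the canonical transcript is shared with exons of another gene on the same strand. Its value therefore does not show whether its message was low. ATF4, at 491 TPM, had a higher mean than any gene with a match. ATF4, ATF5, TRIB3, EIF2AK4 and PPP1R15A had no match of the composite element in the 1000 bases.

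**Figure D1:**
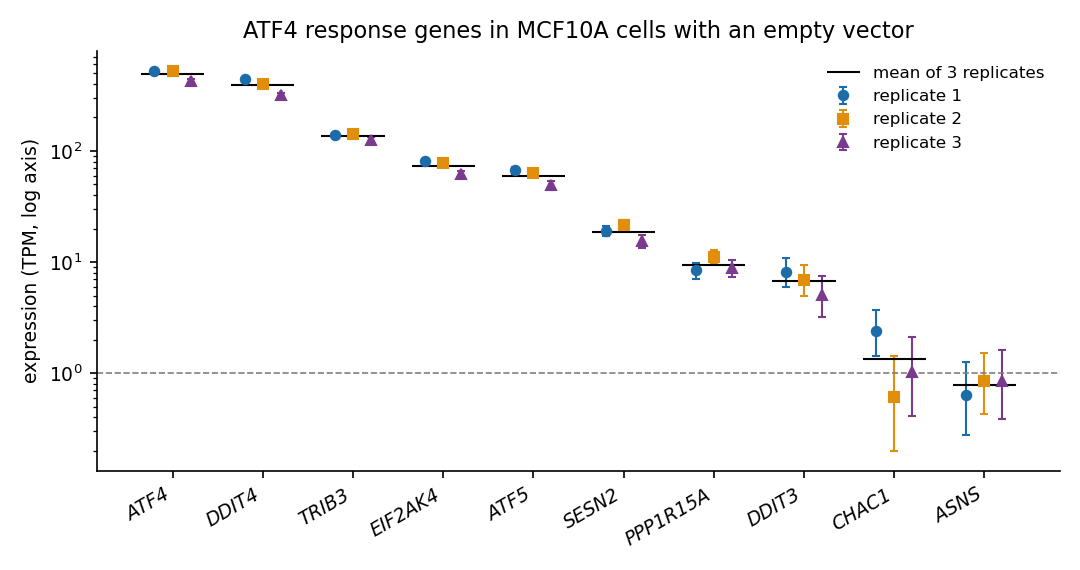
TPM of the 10 genes (log axis) in replicates 1, 2 and 3, ordered by their mean, with exact 95% Poisson intervals of the reads as error bars, black bars at the mean of 3 replicates and a dashed line at 1 TPM. ATF4 and DDIT4 lie highest, at 491 and 388 TPM on average, and CHAC1 and ASNS lie at the line.

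By the mean of the replicates, 9 of the 10 genes reached 1 TPM, an arbitrary cutoff that the study's modeling also used, and ASNS was below it. Among all 20046 protein-coding genes of the annotation, 56.7% were at or above this cutoff. The median over the 10 genes was 39.2 TPM, beside 24.9 TPM over the 11360 protein-coding genes at or above the cutoff. The levels thus spread from the top of the expressed genes to their lower end.

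EIF2AK4, also called GCN2, is the eIF2 kinase that senses uncharged tRNA when amino acids run short. It lies on chromosome 15 of hg38 from 39934115 to 40035591 (ENSG00000128829). It was measured at 80.7, 77.1 and 62.2 TPM in replicates 1, 2 and 3, with a mean of 73.4 ± 9.79 TPM (SD, n = 3). Replicates 1 and 2 were close to each other and replicate 3 was the lowest. Of the expressed protein-coding genes, 19.8% had a higher mean.

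The other eIF2 kinases respond to other stresses, EIF2AK1 to heme shortage and mitochondrial stress, EIF2AK2 to double-stranded RNA and EIF2AK3 to unfolded protein in the endoplasmic reticulum. Their means were 101 ± 9.51 TPM for EIF2AK1, 42.0 ± 2.71 TPM for EIF2AK2 and 14.03 ± 0.863 TPM for EIF2AK3 (SD, n = 3 each). In every replicate, on deposited TPM, EIF2AK1 was the highest of these kinases, followed by EIF2AK4, EIF2AK2 and EIF2AK3. The log2 ratio of EIF2AK4 was -0.46 ± 0.07 over EIF2AK1, 0.80 ± 0.15 over EIF2AK2 and 2.38 ± 0.20 over EIF2AK3 (SD, n = 3 each). The order of EIF2AK4 and EIF2AK2 depends on the length used, since the log2 ratio was -0.20 with reads divided by all unshared exonic bases of each gene in place of its longest transcript. With that length the mean of EIF2AK4 was 44.5 TPM, and its log2 ratio was -1.26 over EIF2AK1 and 3.39 over EIF2AK3.

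ATF4 (ENSG00000128272, chromosome 22 from 39519695 to 39522683) is the central transcription factor of the response. Its level was 523, 523 and 427 TPM in replicates 1, 2 and 3, resting on 5555, 5710 and 3859 reads, with a mean of 491 ± 55.4 TPM (SD, n = 3). It was the highest of the 10 genes in every replicate on deposited TPM, and 1.98% of the expressed protein-coding genes had a higher mean. Replicates 1 and 2 had overlapping counting intervals, and replicate 3 lay below both.

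ATF5, a related factor of the basic leucine zipper class whose translation is controlled in a like manner, is located on chromosome 19 from 49928702 to 49933935 (ENSG00000169136). It was measured at 66.7, 63.3 and 49.3 TPM, with a mean of 59.8 ± 9.24 TPM (SD, n = 3). On the opposite strand 9.77% of its canonical transcript is covered by exons, mainly of NUP62, a nuclear pore gene at 80.6, 81.2 and 69.2 TPM, whose part in the level was not tested. ATF4 was higher than ATF5 in every replicate, by 8.24-fold (log2 ratio 3.04 ± 0.07, SD, n = 3). With the length of the canonical transcript, which is 1419 bases for ATF4 where the longest transcript has 2019, the log2 ratio was 3.55.

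DDIT3, also called CHOP or GADD153, is a C/EBP-related factor that ATF4 induces and that is known for a role in death of cells under lasting stress. It lies on chromosome 12 from 57516588 to 57521737 (ENSG00000175197). Its level was low, at 8.21, 6.95 and 5.03 TPM with 46, 40 and 24 reads behind them, with a mean of 6.73 ± 1.60 TPM (SD, n = 3). The counting intervals of the 3 replicates overlapped, and 80.3% of the expressed protein-coding genes had a higher mean.

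The canonical transcript of DDIT3 shares 11.6% of its bases with a second gene in the same orientation (ENSG00000285133, all of whose 105 exonic bases lie in DDIT3 and which had 0 reads) and 24.3% with MARS1 on the opposite strand. MARS1 encodes the methionyl-tRNA synthetase and was measured at 132, 129 and 96.5 TPM. Whether strand was used in the counting is not given in the sources used here, and the part of MARS1 reads in the level of DDIT3 was not tested.

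Among the C/EBP factors, which include partners of ATF4 on the composite element, CEBPB was highest at 171 ± 26.6 TPM, followed by CEBPD at 67.5 ± 15.3 TPM and CEBPG at 39.8 ± 2.19 TPM (SD, n = 3 each). DDIT3 was lower than each of these in every replicate, by 25.8-fold for CEBPB, 10.04-fold for CEBPD and 6.03-fold for CEBPG. CEBPA, a factor of differentiation, was lower than DDIT3 in every replicate, at 2.76 ± 0.846 TPM (SD, n = 3), a log2 ratio of 1.31 ± 0.25 in favor of DDIT3 (SD, n = 3). Exons on the opposite strand cover 43.9% of the canonical transcript of CEBPA and 12.6% of that of CEBPB. Their part in these levels was not tested. CEBPE, a factor of granulocyte maturation, had 0 reads in each replicate. With a count of 0 set to 3 reads in each library, DDIT3 was 9.50-fold higher than CEBPE in the replicate where this ratio was lowest. The counting error of DDIT3 itself is not included.

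TRIB3, a pseudokinase that binds ATF4 and limits its activity, was among the higher genes. It is located on chromosome 20 from 362835 to 397559 (ENSG00000101255). Its level was 139, 141 and 125 TPM, with a mean of 135 ± 8.34 TPM (SD, n = 3) and the lowest coefficient of variation of the 10 genes, 6.18%. Of the expressed protein-coding genes, 9.60% had a higher mean. The other Tribbles genes, which act on C/EBP factors and their degradation, were lower than TRIB3 in every replicate, TRIB1 at 13.7 ± 1.29 TPM and TRIB2 at 17.1 ± 3.005 TPM (SD, n = 3 each). The difference was 9.91-fold for TRIB1 and 7.98-fold for TRIB2, with log2 ratios of 3.31 ± 0.05 and 2.996 ± 0.18 (SD, n = 3 each). With reads per unshared exonic base it was 8.08-fold for TRIB1 and 6.00-fold for TRIB2.

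PPP1R15A, or GADD34, is the stress-induced subunit that brings protein phosphatase 1 to eIF2. It is located on chromosome 19 from 48872212 to 48876059 (ENSG00000087074), and its promoter window held the cAMP response element shown above. Its level was 8.41, 11.1 and 8.85 TPM in replicates 1, 2 and 3, with a mean of 9.46 ± 1.46 TPM (SD, n = 3). Replicate 2 was the highest. PPP1R15B, the subunit of the same phosphatase that is present without stress, was at 117 ± 10.9 TPM (SD, n = 3) and higher than PPP1R15A in every replicate, by 12.4-fold, or by 7.36-fold with reads per unshared exonic base.

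CHAC1 encodes an enzyme that breaks down glutathione and is a late target of ATF4 and DDIT3. It is located on chromosome 15 from 40952962 to 40956512 (ENSG00000128965). It was measured at 2.38, 0.608 and 1.03 TPM, which rest on 19, 5 and 7 reads, with a mean of 1.34 ± 0.924 TPM (SD, n = 3). Replicate 1 was 3.91-fold higher than replicate 2, and the exact 95% Poisson intervals, which cover counting error only, were 1.43 to 3.71 TPM in replicate 1 and 0.198 to 1.42 TPM in replicate 2. CHAC1 was thus the only one of the 10 genes with replicates on both sides of 1 TPM, beside 2.84% of all protein-coding genes, and without replicate 1 its mean was 0.819 TPM. Its relative CHAC2, a slower enzyme of the same reaction that is present without stress, was at 23.6 ± 2.46 TPM (SD, n = 3) and higher in every replicate, by 20.6-fold, with a log2 ratio of CHAC1 over CHAC2 of -4.36 ± 0.88 (SD, n = 3).

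ASNS encodes asparagine synthetase, which makes asparagine from aspartate and glutamine and is a standard target of ATF4. It lies on chromosome 7 from 97851677 to 97872542 on the minus strand (ENSG00000070669). The deposited values were 0.640, 0.856 and 0.846 TPM from 8, 11 and 9 reads, with a mean of 0.781 ± 0.122 TPM (SD, n = 3), the lowest of the 10 genes. Of the 2385 bases of its canonical transcript, 2374 (99.5%) are also exons of another gene on the same strand, the long non-coding gene ENSG00000284707 (chromosome 7 from 97851688 to 97972985), which starts upstream of ASNS and runs through it. Of the 13 exons of the canonical transcript, 12 are shared in full, and exon 13 from 97851677 to 97852468 keeps 11 bases of its own. From these values a low ASNS message and reads left uncounted in shared exons cannot be told apart.

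The overlapping gene had 0.407, 1.24 and 0.419 TPM from 8, 25 and 7 reads. Of its own 5169 exonic bases, 53.3% are shared on the same strand, so its value carries the same limit. Over all annotated ASNS transcripts, 2481 exonic bases are not shared, of which 2470 lie outside the canonical transcript. In the whole table, 342 of 342 protein-coding genes whose exonic bases are all shared in this way had 0 reads throughout. Of the 497 protein-coding genes with at least 90% of the canonical transcript shared but some exonic bases of their own, 15.5% were at or above 1 TPM, and of the 17057 with no shared base in the canonical transcript, 58.5% were. With reads divided by the unshared exonic bases and each library scaled again to the same sum, ASNS was at 0.984 TPM. The deposited mean was 0.781 TPM. Its 2481 unshared bases are more than the 2385 of its longest transcript, so the rise comes from the scaling. It does not correct for reads left uncounted in the shared exons. ASNSD1, which resembles ASNS in its synthetase domain, was at 31.3 ± 4.13 TPM (SD, n = 3), and 49.7% of its own canonical transcript is shared on the same strand, so no ratio is drawn between them.

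**Figure D2:**
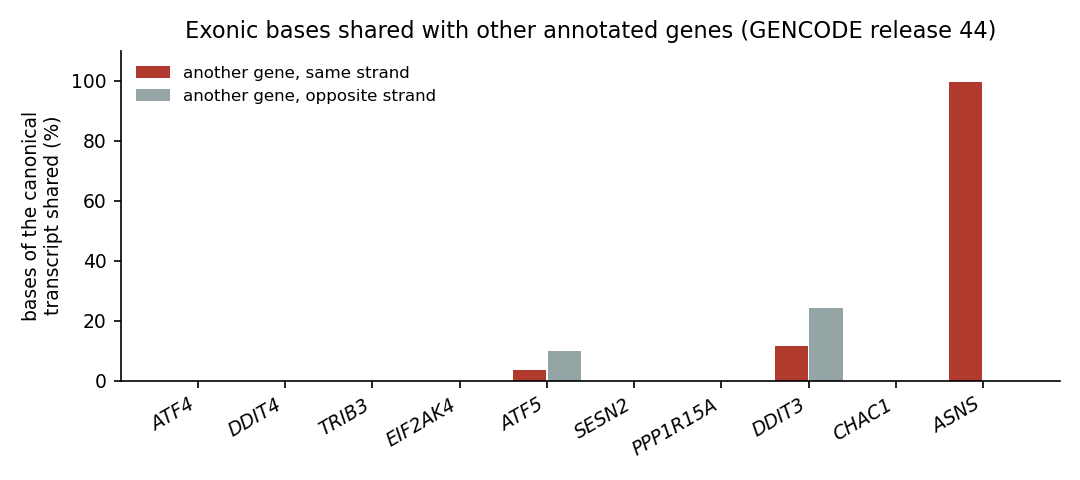
Percent of the bases of the canonical transcript of each gene that lie in exons of another annotated gene on the same strand (red) or on the opposite strand (gray), genes in the order of their mean TPM. ASNS stands at 99.5% on the same strand, DDIT3 at 11.6% and ATF5 at 3.69%, and the other 7 genes at 0%.

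SESN2 and DDIT4 link the response to the growth kinase mTORC1. SESN2 encodes a leucine-binding Sestrin that holds mTORC1 back when leucine is scarce, and it is located on chromosome 1 from 28259518 to 28282491 (ENSG00000130766). It was measured at 19.0, 21.7 and 15.4 TPM, with a mean of 18.7 ± 3.18 TPM (SD, n = 3) and replicate 3 the lowest. SESN1, a p53 target, was at 20.6 ± 2.60 TPM (SD, n = 3) and did not differ from SESN2 beyond the spread, with a log2 ratio of SESN2 over SESN1 of -0.14 ± 0.33 (SD, n = 3) and SESN2 the higher in 1 of 3 replicates. SESN3, a target of FOXO factors, was lower than SESN2 in every replicate, at 5.79 ± 0.965 TPM (SD, n = 3), by 3.22-fold.

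DDIT4, or REDD1, represses mTORC1 through the TSC complex and is known to respond to hypoxia and glucocorticoids as well as to ATF4. It is located on chromosome 10 from 72273919 to 72276036 (ENSG00000168209). Its level was 445, 399 and 321 TPM in replicates 1, 2 and 3, with a mean of 388 ± 62.5 TPM (SD, n = 3). The counting intervals of the 3 replicates did not overlap. Of the expressed protein-coding genes, 2.71% had a higher mean. DDIT4L, its paralogue, had 0 reads in each replicate. With a count of 0 set to 3 reads in each library, DDIT4 was 1248-fold higher in the replicate where this ratio was lowest.

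**Figure D3:**
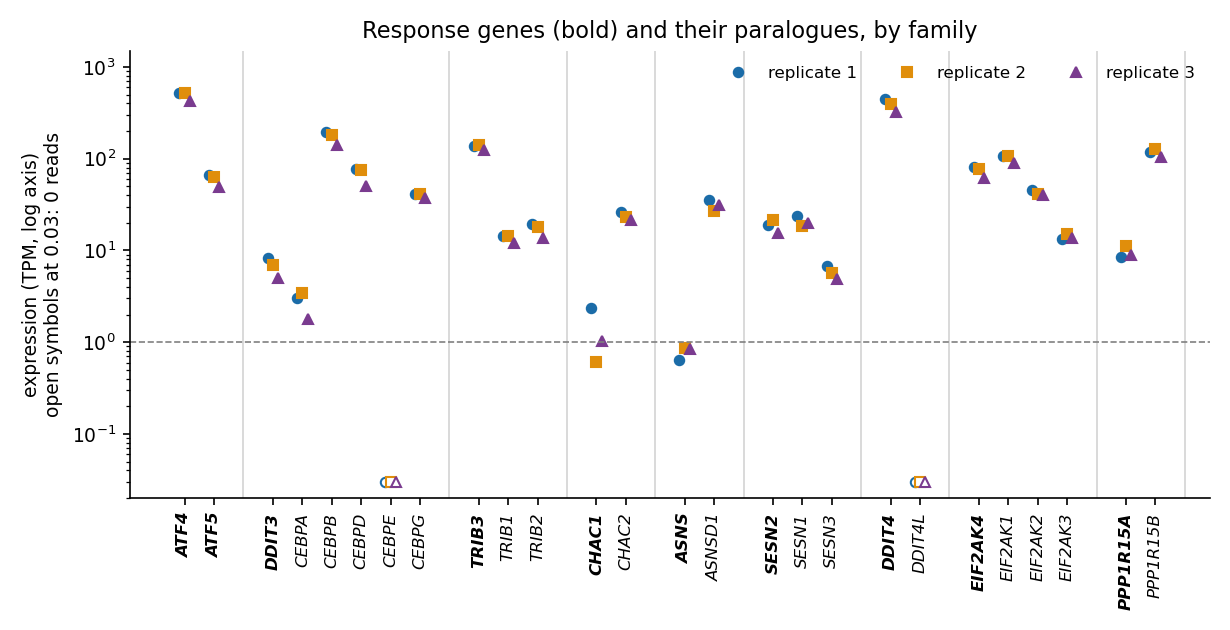
TPM (log axis) of the 10 genes, in bold, and of their paralogues in replicates 1, 2 and 3, grouped by family, with open symbols for 0 reads and a dashed line at 1 TPM. ATF4, TRIB3 and DDIT4 are the highest of their families, whereas DDIT3 lies below CEBPB, CEBPD and CEBPG, CHAC1 below CHAC2 and PPP1R15A below PPP1R15B. The value of ASNS carries the limit of its shared exons.

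Leaving out ASNS, the response gene had the higher mean on deposited TPM in 9 of 16 comparisons with a paralogue. An exact sign test over 3 replicates cannot go below p = 0.25 (two-sided), so the order is given as a description. Genes known to be present without stress, PPP1R15B and CHAC2, were the higher of their pairs, and TRIB3 and DDIT4 were the higher of theirs.

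Ordered by their means, the genes were ATF4, DDIT4, TRIB3, EIF2AK4, ATF5, SESN2, PPP1R15A, DDIT3, CHAC1 and ASNS. From ATF4 to DDIT3 each gene was higher than the next in every replicate on deposited TPM, and the log2 ratios of neighbors lay between 0.30 ± 0.03 for EIF2AK4 over ATF5 and 1.68 ± 0.13 for ATF5 over SESN2 (SD, n = 3 each). Some of this order rests on the length used. With reads per unshared exonic base, EIF2AK4 was below ATF5 in every replicate, with means of 44.5 and 56.3 TPM and a log2 ratio of -0.33 ± 0.03, and ATF4 was above DDIT4 in 2 of 3 replicates, with a log2 ratio of 0.08 ± 0.10 (SD, n = 3 each). PPP1R15A and DDIT3 were the closest neighbors in a replicate, at 8.41 and 8.21 TPM in replicate 1, and the log2 ratio of 0.51 ± 0.42 (SD, n = 3) was little above its spread. DDIT3 was higher than CHAC1 in every replicate, by 5.78-fold. CHAC1 and ASNS did not keep their order, with CHAC1 the higher in 2 of 3 replicates and a log2 ratio of 0.56 ± 1.22 (SD, n = 3). The values rest on 5 to 19 reads for CHAC1 and 8 to 11 for ASNS. The place of ASNS in the order also carries the limit of its shared exons.

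**Figure D4:**
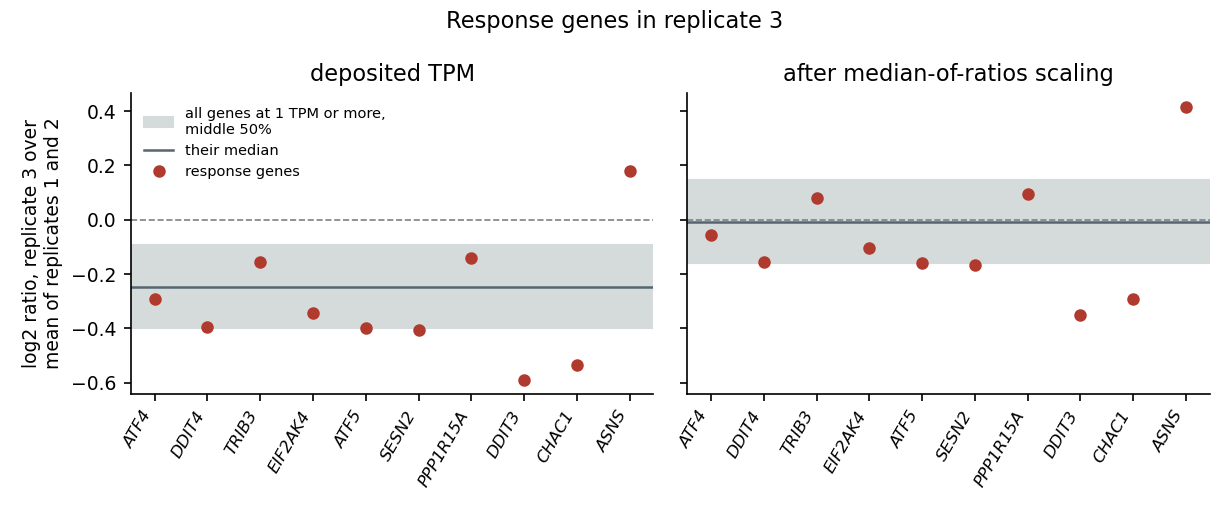
Log2 ratio of replicate 3 over the mean of replicates 1 and 2 for each of the 10 genes, on deposited TPM (left) and after median-of-ratios scaling (right), with the median (line) and the middle 50% (band) of all genes at 1 TPM or more. On deposited TPM 9 of the 10 genes lie below 0, as does the median of all genes at -0.25. After scaling ASNS lies highest at 0.41, on 8, 11 and 9 reads in replicates 1, 2 and 3. DDIT3 lies lowest at -0.35, on 46, 40 and 24 reads.

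Beside its RN7SL1 share, replicate 3 had a share of mitochondrially encoded genes of 6.27%, close to the 6.22% and 5.93% of replicates 1 and 2. Of the 15632 annotated genes that averaged 1 TPM or more, 80.7% were lower in replicate 3 than in the mean of the other two, with a median log2 ratio of -0.25. The part of RN7SL1 in the levels of single genes was not tested. Of the 11360 protein-coding genes among them, the class to which all 10 response genes belong, 89.4% were lower, with a median log2 ratio of -0.24. Of the 10 response genes, 9 were lower in replicate 3 and ASNS was not, with a median log2 ratio of -0.37. After scaling by the median of ratios over genes at 10 TPM or more in every replicate, the median of the 10 genes was -0.13. TRIB3 at 0.08, PPP1R15A at 0.09 and ASNS at 0.41 were above 0. The ratio of ASNS rests on 8, 11 and 9 reads and carries the limit of its shared exons. Because TPM is a share of each library, a lower value in replicate 3 does not by itself show a lower level in the cells. In bulk RNA, a lower level in fewer cells and in every cell could not be told apart either.

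The median SD of log2(TPM + 1) over the 3 replicates was 0.21 for the 10 genes and 0.19 for all genes averaging 1 TPM or more, and that of the 10 genes was 0.12 without replicate 3. To see which genes differed between replicates beyond the counting of reads, a chi-square test against equal TPM was run on 15802 genes with at least 15 reads. It called 54.3% of all genes tested at an adjusted p under 0.05 (Benjamini-Hochberg), and 8 of the 10 response genes, all but DDIT3 and ASNS. The adjusted p of this chi-square test was 1.3e-39 for DDIT4, 5.6e-25 for ATF4 and 0.0139 for CHAC1 over n = 3 replicates. The test was run on each gene by itself, is not an exact one, and was adjusted over all genes tested. After median-of-ratios scaling the test called 31.1% of all genes and 2 of the 10, DDIT4 with an adjusted p of 3.8e-09 and CHAC1 with 0.0381. Under that scaling ATF4 was not called, with an adjusted p of 0.203. Without replicate 3 the test on deposited TPM called 21.3% of all genes tested and 3 of the 10, CHAC1, DDIT4 and PPP1R15A. Without replicate 1 it called 46.7% of all genes and 6 of the 9 response genes that could be tested, since CHAC1 then had fewer than 15 reads, and without replicate 2 it called 46.7% of all genes and 6 of the 10. PPP1R15A was called in neither of these, and CHAC1 was not called without replicate 2. The test covers counting error only, and nothing in the labels says whether the replicates were separate cultures.

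**Figure D5:**
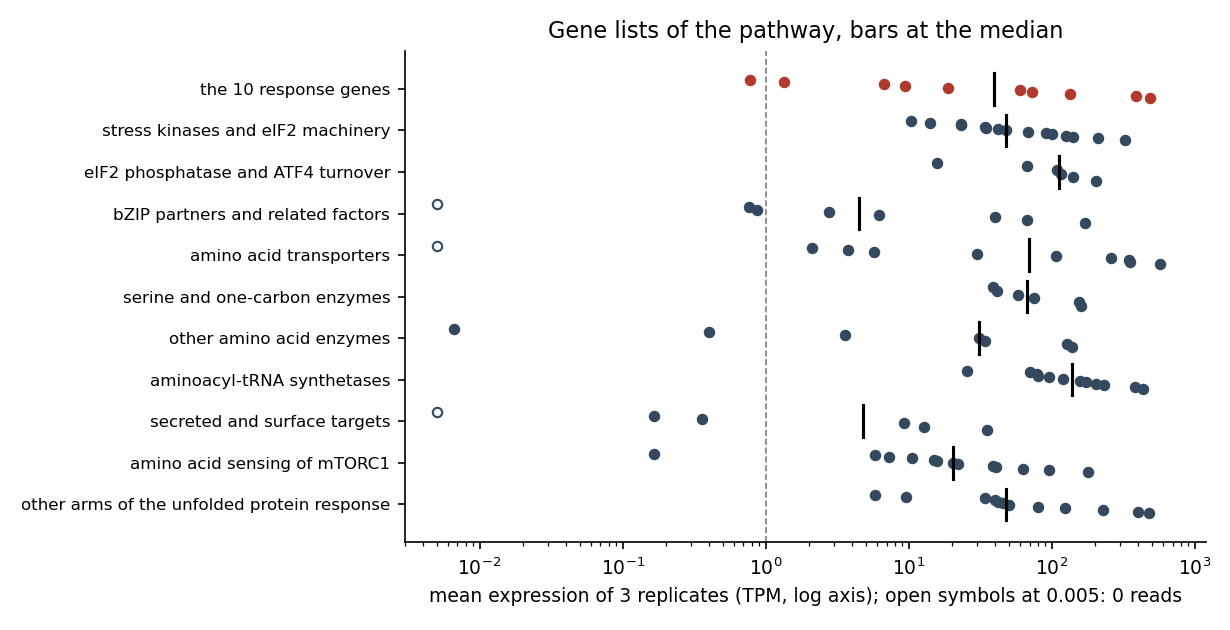
Mean TPM of 3 replicates (log axis) of the 10 response genes, in red, and of the 95 other genes of the pathway by list, with open symbols for 0 reads, black bars at the median of each list and a dashed line at 1 TPM. The aminoacyl-tRNA synthetases lie together at a median of 138 TPM, and the secreted targets and bZIP factors spread across the line.

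Of 95 other genes of the pathway in 10 lists, 85 were at or above 1 TPM by the mean, beside 56.7% of all 20046 protein-coding genes. The median over the 95 genes was 42.3 TPM. Since the lists were written with earlier results of these data known, these counts are descriptions only. The machinery that receives the stress signal was expressed throughout. All 15 genes for stress kinases and eIF2 were at or above 1 TPM, from OMA1, a mitochondrial protease upstream of EIF2AK1, at 10.4 ± 0.906 TPM to EIF2S3, the gamma subunit of eIF2, at 328 ± 30.2 TPM (SD, n = 3 each). So were all 6 genes of the eIF2 phosphatase and of the ligases that bring ATF4 to degradation, from BTRC at 15.8 ± 1.69 TPM to the catalytic subunit PPP1CC at 205 ± 14.5 TPM (SD, n = 3 each).

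The targets of ATF4 in amino acid supply were mostly expressed. All 12 aminoacyl-tRNA synthetases were at or above 1 TPM, from CARS1 at 25.8 ± 1.90 TPM to EPRS1 at 434 ± 51.6 TPM (SD, n = 3 each), and all 6 enzymes of serine and one-carbon metabolism, from ALDH1L2 at 39.04 ± 4.47 TPM to SHMT2 at 160 ± 18.5 TPM (SD, n = 3 each). Of 10 amino acid transporters, 9 were at or above 1 TPM. The highest was SLC7A5, the large neutral amino acid transporter, at 572 ± 82.2 TPM (SD, n = 3). SLC7A3, a transporter of basic amino acids, had 0 reads throughout, where 3 reads would give 0.256, 0.249 and 0.300 TPM. Of 7 other amino acid enzymes, 5 were at or above 1 TPM, with ALDH18A1 of proline synthesis highest at 139 ± 15.3 TPM (SD, n = 3). BCAT1, the cytosolic transaminase of branched-chain amino acids, was lowest, with 0, 1 and 0 reads.

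Of 8 related bZIP and partner factors, 5 were at or above 1 TPM. ATF3, a factor induced by many stresses, had 0.813, 1.14 and 0.637 TPM from 9, 13 and 6 reads, and NUPR1, a small stress-induced cofactor, 0.646, 0.524 and 1.14 TPM from 18, 15 and 27 reads. Both thus had replicates on both sides of 1 TPM, with the highest in replicate 2 for ATF3 and in replicate 3 for NUPR1. Of 6 secreted and surface targets, 3 were at or above 1 TPM, with the secreted glycoprotein STC2 highest at 35.2 ± 6.20 TPM (SD, n = 3). FGF21, a hormone that ATF4 induces in liver, had 0 reads throughout, where 3 reads would give 0.424, 0.412 and 0.498 TPM.

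Around mTORC1, 12 of 13 genes of amino acid sensing were at or above 1 TPM, with the translation repressor EIF4EBP1 highest at 180 ± 23.0 TPM (SD, n = 3). The arginine sensor CASTOR1 was lowest, at 0, 0.495 and 0 TPM, where 83.9% of the canonical transcript overlaps same-strand exons of other genes, so that the limit given for ASNS holds here too. All 12 genes of the other arms of the unfolded protein response were at or above 1 TPM, from the sensor ERN1 at 5.79 ± 1.48 TPM to the chaperone HSPA5 at 478 ± 60.7 TPM (SD, n = 3 each).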

How the data were processed

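RNA-seq was measured in 3 replicates of MCF10A cells with an empty vector, from 300 ng of RNA each. The authors deposited TPM values for 62754 genes, with replicates not pooled. Per the submitters' processing notes, fastp, STAR and MultiQC were used with hg38 (GRCh38.p14), and the methods name Seq2science for counting. The annotation release and use of strand are not given in the sources used here. GENCODE release 44 held 62700 of the genes. Reads were TPM times the length of the longest transcript (1 base less per exon) over the smallest step in each replicate, which gave whole numbers within 0.01 for 100% of genes. Shared bases were counted between exons on the same strand. Poisson intervals are exact at 95%, and 0 reads were given the limit of 3 reads, both for counting error only.

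The response genes, the pathway, family and marker lists and the tests were chosen with earlier results of these data known. All response genes and paralogues were named, and from each list the highest and lowest gene, those with replicates on both sides of 1 TPM and those with at least 50% of the canonical transcript shared. Replicates were compared by a chi-square test of each gene with at least 15 reads and Benjamini-Hochberg adjustment over all genes tested, a procedure tested on simulated data. Alternatives covered cutoff, summary, scaling, length, pseudocount, filter and leaving out replicates. Promoter windows were RefSeq's on GRCh38.p14. Tables were handled with pandas 2.3.3 and numpy 2.4.6 in Python 3.11.15, tests run with scipy 1.17.1 and plots drawn with matplotlib 3.10.9.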

Additional observations from a re-analysis of the deposited data

How the results depend on the processing

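No paired analysis was possible because the design has a single condition with 3 replicates. By the mean, 9 response genes reached 1 TPM, and 8 to 9 did when 1 replicate was left out. It was 85 of the pathway genes whichever replicate was left out. The number of genes that differed between replicates fell from 8575 to 4922 with median-of-ratios scaling, and that of response genes from 8 to 2. Leaving out 1 replicate gave from 3185 of 14980 genes tested (21.3%, without replicate 3) to 6894 of 14770 (46.7%, without replicate 1), and from 3 to 6 response genes, fewest without replicate 3. The median log2 ratio of the response genes in replicate 3 was -0.18 with protein-coding genes summing to 1000000 and -0.13 with median-of-ratios scaling, in place of -0.37. The composite element was found for 5 genes in 1000 bases, in place of 2. With reads per unshared exonic base, the log2 ratio reversed to 0.22 for SESN2 over SESN1, to -0.20 for EIF2AK4 over EIF2AK2 and, in an alternative chosen after seeing the data, to -0.33 for EIF2AK4 over ATF5. For EIF2AK4, exonic bases over all transcripts number 11988, and its longest transcript has 5538. With the length of the canonical transcript, chosen after seeing the data, and each library scaled again to 1000000, 6 of 10 levels moved by more than 1 SD. ATF4, whose canonical transcript is shorter than its longest, moved to 570.4 TPM. TRIB3 moved to 110.3 TPM. For TRIB3, ATF5, SESN2, EIF2AK4 and ASNS the canonical transcript is as long as the longest, so their moves come almost wholly from the scaling. Depth limits CHAC1, whose replicates held from 5 to 19 reads.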
